A study of Mus musculus with 2 samples.

Results

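The cells described here are 236 Ccr3-positive barcodes with the markers of eosinophils, found among 9153 barcodes of the mouse colonic lamina propria, the connective tissue under the gut epithelium. They were chosen by raw counts of unique molecular identifiers (UMIs, each standing for 1 captured transcript). A member had at least 200 genes and at most 20% mitochondrial UMIs, at least 1 Ccr3 UMI and at least 2 UMIs of Alox15, Serpinb2 and Siglecf together. It also had fewer than 30 UMIs of S100a8 and S100a9 together and none of C1qa, C1qb, C1qc, Cd3d, Cd3e, Cd3g or Ms4a1. The barcodes came from 2 droplet libraries (10x Genomics, 3' kit V3) of colonic cells from male C57BL/6 mice aged 6-8 weeks and kept free of specific pathogens. One library was labelled wild type. The other was labelled as deficient in the long noncoding RNA Lncly6c (1700016P04Rik), whose gene had been deleted in C57BL/6J zygotes by CRISPR-Cas9 cuts on either side of its 2 exons, so that the deletion was not limited to 1 cell type. The labels do not give the number of mice behind each library. Values are given for the wild-type-labelled library first and the deficient-labelled library second throughout.

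Each condition was 1 library, so no test between conditions was possible. Intervals are exact 95% intervals that cover counting error only, and not the variation between mice. Each file name bears the genotype of the other library, so that a reading by file name would exchange the 2 libraries in all that follows. The deleted gene cannot settle this, because it had 0 UMIs in every barcode of both libraries. Among members, 0 of 185 and 0 of 51 allow shares of up to 1.62% and 5.88% of barcodes with a UMI. After the limits on genes and mitochondrial UMIs, 2610 and 5890 barcodes were kept. The libraries share 7 barcode sequences, and 2 of these were members in the wild-type-labelled library and other cells in the deficient-labelled one; without the shared sequences the members were 183 and 51.

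Eosinophils are granulocytes that mature in the bone marrow under interleukin-5 and enter the gut through eotaxin, the ligand of the receptor CCR3. In the healthy gut they reside in the lamina propria, where they are recognised by surface Siglec-F, and they make lipid mediators through the lipoxygenase encoded by Alox15. Their granule proteins are transcribed mainly in marrow precursors. Granulocytes in general hold little RNA, which makes them easy to lose in droplet sequencing.

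The start regions of the marker genes Ccr3 and Serpinb2 are shown because GATA and C/EBP factors direct eosinophil development and the rule used these genes. RefSeq windows (GRCm38.p6) of 250 bases before the start were found for 4 of the 5 markers, and Alox15 is named only. Capitals mark matches, on either strand, to the motif AGATAA, bound by GATA factors, and to the motif TTGCNNAA, bound by C/EBP factors.
Ccr3, chr9:124021721-124021970, plus strand: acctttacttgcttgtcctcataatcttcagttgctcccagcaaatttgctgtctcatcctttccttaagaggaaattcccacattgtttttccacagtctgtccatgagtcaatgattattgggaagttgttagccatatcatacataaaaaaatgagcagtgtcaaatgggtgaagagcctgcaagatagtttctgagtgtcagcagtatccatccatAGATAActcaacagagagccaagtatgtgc
Serpinb2, chr1:107511173-107511422, plus strand: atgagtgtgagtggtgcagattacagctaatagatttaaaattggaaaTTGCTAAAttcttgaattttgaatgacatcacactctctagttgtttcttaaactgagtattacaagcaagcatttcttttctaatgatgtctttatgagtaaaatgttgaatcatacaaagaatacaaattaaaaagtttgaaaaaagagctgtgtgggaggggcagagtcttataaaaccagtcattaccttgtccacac
The Ccr3 match begins 30 bases before the start and the Serpinb2 match 202 bases before it. A second Serpinb2 start has AGATAA 41 bases and a C/EBP-type match 19 bases before it. The Siglecf and F5 windows, which are not shown, held neither motif. In all, 2 of the 5 windows held AGATAA and 2 held TTGCNNAA, against 9.99% and 9.56% of 32851 windows of all genes. The windows of both Serpinb2 starts overlap and are counted separately. A match of letters is a description and not a bound site.

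The eosinophil barcodes were shallow. They held a median of 1231 UMIs (518 to 10493) in the wild-type-labelled library and 936 (520 to 9847) in the deficient-labelled one, from a median of 681 and 590 genes. Barcodes gated as neutrophils, with at least 30 UMIs of S100a8 and S100a9 and at least 1 of Csf3r, Cxcr2 or Retnlg, had medians of 3117 and 2307 UMIs. All other kept barcodes had medians of 7310 and 7919. The deposited matrices begin at 500 UMIs, and 59 of 185 and 28 of 51 members had fewer than 1000, so eosinophils below this limit are outside the data. Among kept barcodes of fewer than 1500 UMIs, 121 of 505 (24.0%, interval 20.3 to 27.9) and 48 of 526 (9.13%, 6.81 to 11.9) were members. The mitochondrial share was unlike that of neutrophils. Its median was 4.57% and 4.11% of UMIs in eosinophils and 0.608% and 0.681% in neutrophils. Ribosomal protein genes, which encode the subunits of the ribosome, gave 6.15% and 8.15% of eosinophil UMIs, against 19.6% and 20.4% in the other kept barcodes and 7.54% and 8.78% in neutrophils.

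**Figure D1:**
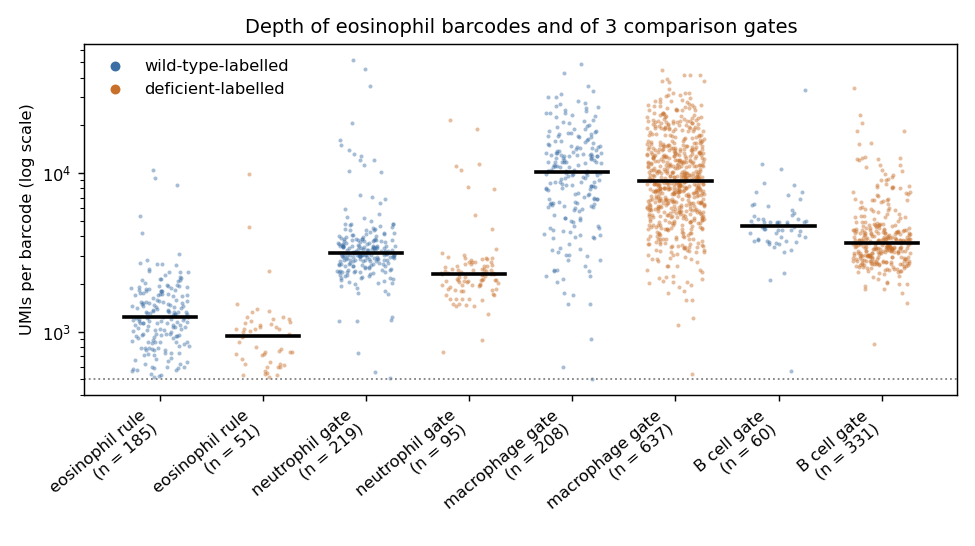
UMIs per barcode on a log scale for the eosinophil rule and for the neutrophil, macrophage (at least 10 C1q UMIs) and B cell (Ms4a1 with Cd79a or Cd79b) gates, with 1 point per barcode, black bars at the medians and a dotted line at the 500 UMIs where the matrices begin. Eosinophil barcodes have the lowest medians, 1231 and 936 UMIs, against 3117 and 2307 in neutrophils.

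A few members were far deeper than the rest. Members above 3000 UMIs numbered 6 and 2, and they held 14.9% and 24.1% of all member UMIs. They carried transcripts of other cells: 93.6% and 86.5% of the members' UMIs of Lyz2, the macrophage and monocyte lysozyme, lay in them, but only 2.39% and 2.67% of the Ccr3 UMIs. The deepest deficient-labelled member, with 9847 UMIs, had 147 UMIs of Lyz2, 201 of Il1b, 64 of Cd14 and 346 of Cxcl2 beside 1 of Ccr3. The deepest wild-type-labelled member, with 10493 UMIs, had 298 of Cd74, the invariant chain of MHC class II, and 0 of Serpinb2. Values between libraries are therefore given with and without these 8 barcodes, and whether any of them held more than 1 cell was not tested.

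Eosinophils made up 7.09% of the kept wild-type-labelled barcodes (185 of 2610, interval 6.13 to 8.14) and 0.866% of the kept deficient-labelled ones (51 of 5890, 0.645 to 1.14), an 8.19-fold gap. The intervals did not overlap. Neutrophils were also a larger share of the wild-type-labelled library, 8.39% (7.36 to 9.52) against 1.61% (1.31 to 1.97), a 5.20-fold gap. Eosinophils were 45.8% (40.9 to 50.8) and 34.9% (27.2 to 43.3) of the eosinophils and neutrophils together. These intervals overlapped, but overlap does not show that the proportions were alike. Shares within a library sum to the whole: B cells were 2.30% and 5.62%, and macrophages 7.97% and 10.8%. Because members are shallow, the rule was also applied with every barcode thinned at random to 500 UMIs, which left 84 members (3.22%, 2.58 to 3.97) and 22 (0.374%, 0.234 to 0.565). The gap was then 8.62-fold. Over the alternative rules tried it lay between 7.17-fold and 15.04-fold, the highest with at least 2 Ccr3 UMIs (100 and 15 members). None of them loosened the limits on Ccr3 or on the sum of Alox15, Serpinb2 and Siglecf, so the range does not cover looser limits. Kept barcodes that lacked only the Ccr3 UMI numbered 156 and 118 and were not counted here. Whether the share of cells recovered or captured differed between the libraries was not tested.

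Many barcodes lay close to the limits of the rule. Just inside it, 85 and 36 members had exactly 1 Ccr3 UMI, and 29 and 15 had a sum of exactly 2 for Alox15, Serpinb2 and Siglecf. Just outside, 156 and 118 kept barcodes met every criterion but had no Ccr3 UMI, with medians of 1095.5 and 957.5 UMIs. F5, the coagulation factor V gene that the rule did not use, was found in 42.9% (35.1 to 51.1) and 31.4% (23.1 to 40.5) of these outside barcodes. A further 27 and 22 barcodes had Ccr3 with a sum of 1, and F5 was found in 29.6% and 27.3% of them. Barcodes with Ccr3 and none of the 3 other genes numbered 54 and 51. Their median was 1241 UMIs in the wild-type-labelled library, close to that of members. In the deficient-labelled library it was 7812 UMIs, far from that of members. F5 was found in 29.6% and 9.80% of these barcodes.

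The marker genes were high by construction where the rule used them, and their levels serve as a description. Ccr3, the eotaxin receptor, stood at 1368 and 1255 CPM (a gene's UMIs as a share of all member UMIs of the library, on the usual counts-per-1e6 scale), with 1 to 8 and 1 to 5 UMIs per member. Serpinb2, an inhibitor of plasminogen activators, reached 3969 and 3714 CPM, was found in 94.1% and 98.0% of members, and had a median of 4 UMIs per member in both libraries. Alox15, the 12/15-lipoxygenase, was found in 45.4% (38.1 to 52.9) and 15.7% (7.02 to 28.6) of members, and Siglecf in 22.7% (16.9 to 29.4) and 11.8% (4.44 to 23.9). The rule therefore rested mostly on Ccr3 with Serpinb2, since only 84 of 185 and 8 of 51 members had an Alox15 UMI. Marker support differed between the libraries. Only 2 of the 5 given markers had a UMI in 47 members (25.4%) and in 30 (58.8%), the latter in the library with the shallower members.

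F5 is the given marker that stands outside the rule. It was found in 54.6% (47.1 to 61.9) of the 185 wild-type-labelled members and in 33.3% (20.8 to 47.9) of the 51 deficient-labelled ones, at 797 and 418 CPM. With every barcode thinned to 500 UMIs the shares were 32.4% and 15.7%. The same thinned shares were 3.65% and 4.21% in neutrophils, and 0% in the B cell barcodes, where 0 of 60 and 0 of 331 allow up to 5% and 0.906%. Before thinning, the median depths of the B cell barcodes were 4652 and 3634 UMIs. F5 depended on the Ccr3 count in the deficient-labelled library, at 16.7% (6.37 to 32.8) of members with 1 Ccr3 UMI and 73.3% (44.9 to 92.2) of the 15 with more. In the wild-type-labelled library these shares were 51.8% and 57.0%. The median depths of the deficient-labelled pair were 763 and 1073 UMIs.

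**Figure D2:**
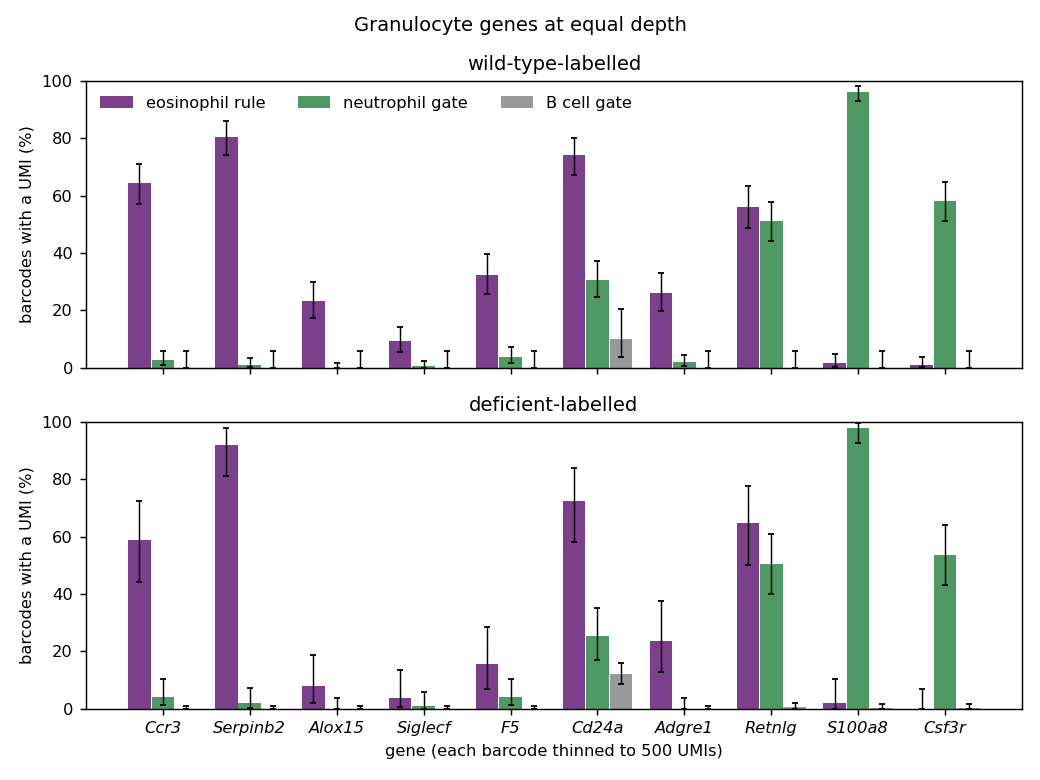
Share of barcodes with a UMI, in percent, for 10 genes after thinning each barcode to 500 UMIs, in the eosinophil rule, the neutrophil gate and the B cell gate of each library, with exact 95% intervals. Retnlg is in 56.2% and 64.7% of eosinophils and 51.1% and 50.5% of neutrophils, with overlapping intervals, and S100a8, which both gates used, is in 1.62% and 1.96% of eosinophils and 96.3% and 97.9% of neutrophils.

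The label was then checked against genes that the rule did not use. Surface markers of mouse eosinophils were present. Cd24a, a small adhesion protein, reached 3139 and 2359 CPM against 262 and 185 in the other kept barcodes. Adgre1, which encodes F4/80, reached 506 and 435 CPM against 78.9 and 69.4, and was at 36.4 and 52.1 CPM in neutrophils. Itgam, the integrin chain CD11b, was at 731 and 636 CPM. By contrast the granule genes were almost absent: Epx (eosinophil peroxidase), Prg3 and Ear1 had 0 UMIs in both libraries, Prg2 (major basic protein) had 8 and 0, Ear6 7 and 0, and Ear2 4 and 0. Il5ra, the interleukin-5 receptor chain, had 7 and 2 UMIs. Among the factors of the lineage, Gata1 had 4 and 0 UMIs, and Cebpe was found in 12.4% and 5.88% of members. These low counts limit what the depth of 274903 and 59774 member UMIs can show.

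Markers of other granulocytes and of mononuclear cells differed in how far they were present. Of the 8 basophil markers, 6 had no UMI in either library, among them Mcpt8, Cpa3 and Fcer1a, and of the 7 mast cell markers 6 had none. The neutrophil list of 11 genes summed to 7454 and 5604 CPM in members, most of it Retnlg, against 3267 and 468 in the other kept barcodes, and per member from 0 to 40736 and from 0 to 43347 CPM. Its granule and surface genes Camp, Ltf, Ngp and Ly6g were at 0, the other 7 had UMIs, and S100a8 was found in 4.32% and 7.84% of members, within the limit that the rule allowed. Csf3r, the neutrophil growth factor receptor, was found in 3.24% and 3.92%. The macrophage list, whose 3 C1q genes the rule set at 0, summed to 517 and 870 CPM in members, against 2416 and 3089 in the other kept barcodes. Per member its sum ran from 0 to 7082 and from 0 to 2976 CPM, and 140 and 28 members had none. The Ly6C-high monocyte list had 0 and 1 of its 6 genes at 0 and summed to 1142 and 1539 CPM, or 731 and 816 without the members above 3000 UMIs, against 1596 and 1410 in the other kept barcodes. The dendritic cell list, which holds 3 MHC class II genes, had 2 of 9 at 0 and summed to 4307 and 5738 CPM, or 1068 and 6524 without the deep members, against 32538 and 35989. The plasma cell list summed to 80.03 and 2175 CPM, against 2785 and 13213. The part of these transcripts in the results was not tested. Among genes outside the rule, the label of eosinophils was thus met by Cd24a and Adgre1. F5 was high too, but it was given as a marker of these cells and is no separate check. The label was not met by transcripts of granule proteins, nor by Il5ra and Ltc4s, which had few or no UMIs.

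The genes that led the members over all other kept barcodes included several outside the given markers. Of 2543 genes with at least 20 member UMIs, 31.5% and 30.4% were at least 2-fold above the other kept barcodes and 9.48% and 12.3% at least 2-fold below, so a 2-fold excess alone was common in this comparison. The leaders went far past it. Il4, the type 2 cytokine interleukin-4, was at 171 and 117 CPM against 2.93 and 1.60 elsewhere, a log2 ratio of 5.86 and 6.19, and was found in 21.1% (15.4 to 27.7) and 13.7% (5.70 to 26.3) of members. After thinning, Il4 was found in 11.4% and 7.84% of members and in 0% of neutrophils, where counts of 0 allow up to 1.37% and 3.16%. The related type 2 cytokines were scarce, with Il13 at 2 and 0 UMIs and Il5 at 0 in both.

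Other leaders were Rflnb, a regulator of filamin, at 746 and 335 CPM, and Tesc, a calcium-binding protein, at 193 and 167. P2rx1, an ATP-gated channel, stood at 83.7 and 117 CPM, and Adora3, the adenosine A3 receptor, at 102 and 100.4. Acpp, an acid phosphatase, reached 295 and 318 CPM. The most abundant leaders outside the rule were Retnlg at 6704 and 4952 CPM, Cyp4f18, a hydroxylase of leukotriene B4, at 2375 and 1573, and Gadd45a, a stress-induced cell cycle inhibitor, at 1993 and 1439. Cyp4f18 was found in 90.3% and 86.3% of members. In all 400 values from other choices of the rule or of the barcodes kept, the 20 leading genes stayed above the other barcodes, the lowest log2 ratio being 2.95. Other scales were not tried for these ratios. The genes were ranked by this same ratio on overlapping barcodes, and some define the rule, so values above the other barcodes are a description only.

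**Figure D3:**
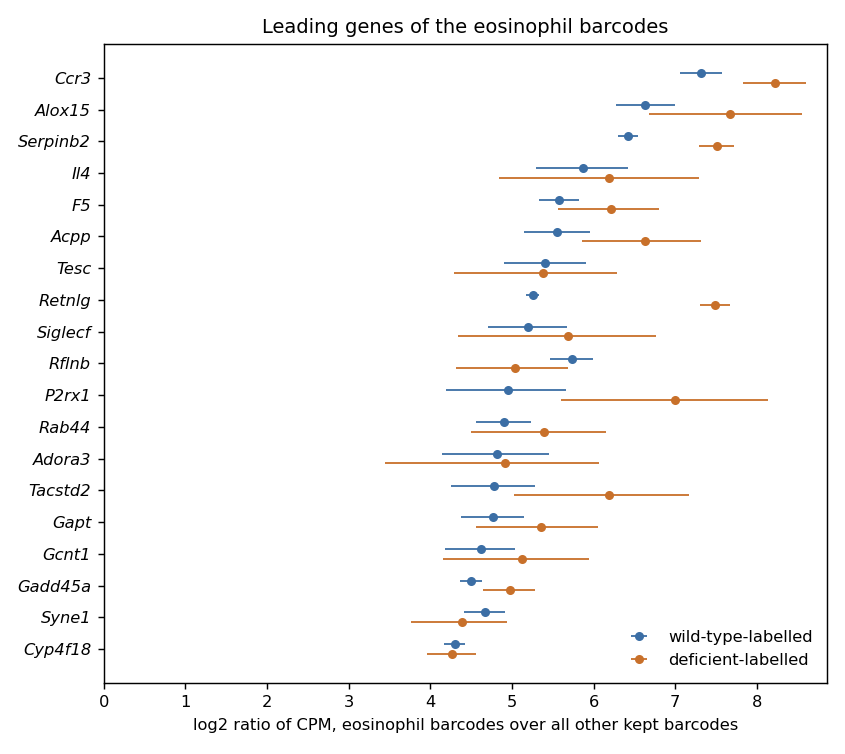
Genes from the 20 with the highest log2 ratio of CPM in eosinophil barcodes over all other kept barcodes, ranked by the lower of both libraries, with points for each library and bars for exact 95% counting intervals. Ccr3, Alox15, Serpinb2 and Siglecf were used to choose the members; Il4 (5.86 and 6.19) and Retnlg (5.26 and 7.48) were not.

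Retnlg, which encodes the resistin-like protein gamma and is usually counted among neutrophil genes, was found in 64.9% (57.5 to 71.7) and 74.5% (60.4 to 85.7) of eosinophil barcodes, and in 79.9% and 76.8% of neutrophils. Its ratio to S100a8 and S100a9 is given as a description only, because these 2 genes define both gates, with fewer than 30 UMIs in eosinophils and at least 30 in neutrophils, and because Retnlg is 1 of 3 genes that could admit a neutrophil. There were 28.4 and 22.8 Retnlg UMIs per S100a8 or S100a9 UMI in eosinophils, and 0.0399 and 0.0326 in neutrophils. Among members without any UMI of S100a8 and S100a9, 109 of 171 and 36 of 46 still had Retnlg. Per member it ran from 0 to 71 UMIs with a median of 3, and from 0 to 43 with a median of 2. Retnlg was thus found in most barcodes of both granulocyte gates.

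Receptors of chemoattractants and lipids were among the more abundant transcripts. The list of chemoattractant and other G protein-coupled receptors held 28 genes, of which 14 had at least 20 member UMIs. Of these 14, 10 and 11 were at least 2-fold above the other barcodes, beside 31.5% and 30.4% of all genes with that minimum. At least 2-fold below were 3 and 1, beside 9.48% and 12.3%. The minimum was set on members and so favours genes high in them, and the list includes Ccr3, which the rule required. Ptafr, the receptor of platelet-activating factor, was at 1892 and 1840 CPM, Cxcr4, the receptor of CXCL12, at 855 and 1054, and Ccr1, a receptor of CCL3 and related chemokines, at 851 and 786. Hrh4, Ptgdr and Cysltr2, receptors of histamine, prostaglandin D2 and cysteinyl leukotrienes, had 0 UMIs. Among cytokine receptors, Csf2rb, the beta chain shared by interleukin-3, interleukin-5 and GM-CSF receptors, was at 826 and 887 CPM, and its close relative Csf2rb2 at 309 and 134. Il1rl1, the interleukin-33 receptor, was found in 17.8% and 7.84% of members. Reads of Csf2rb and Csf2rb2 may have been shared in counting, so their split is uncertain.

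The list of lipid mediator enzymes held 14 genes, of which 7 had at least 20 member UMIs. Of these 7, 6 and 7 were at least 2-fold above the other barcodes, beside the same 31.5% and 30.4% of all genes. None was at least 2-fold below. The minimum was again set on members, and the list includes Alox15, which the rule used. Pla2g7, which degrades platelet-activating factor, reached 2052 and 1271 CPM against 116 and 84.5. Alox5ap, the helper of 5-lipoxygenase, was at 1179 and 1087 CPM. Alox5 itself was at 109 and 117. Ltc4s, the leukotriene C4 synthase, had 0 and 1 UMIs. In the coagulation list, Thbs1, the matrix protein thrombospondin 1, exceeded even Serpinb2 when every member was counted, at 4802 and 5420 CPM against 405 and 470 elsewhere. Without the members above 3000 UMIs, Thbs1 was at 5500 and 4232 CPM and Serpinb2 at 4543 and 4827. Thbs1 then exceeded Serpinb2 in the wild-type-labelled library only. Plaur, the urokinase receptor, was at 669 and 602 CPM. F3, the initiator of clotting, had 1 and 0 UMIs and F7 had 0.

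Chemokine ligands were dominated by a few genes. Ccl6 reached 6537 and 5487 CPM and was found in 95.7% and 98.0% of members, against 456 and 307 CPM in the other barcodes. Ccl9 was at 1644 and 1154 CPM in eosinophils and 68.5 and 135 in neutrophils. Cxcl2, a neutrophil attractant, was found in 83.8% and 84.3% of members but was higher in neutrophils, at 4853 and 10540 CPM against 23697 and 19410. Members above 3000 UMIs held 24.7% and 77.5% of the members' Cxcl2 UMIs. Without them Cxcl2 was at 4295 and 3130 CPM in members. Ccl11, the eotaxin that CCR3 binds, had 0 UMIs in members of both libraries. Among immune receptors, Lilr4b, a receptor of the leukocyte immunoglobulin-like family, was at 1775 and 1706 CPM and Sirpa, the receptor of CD47, at 713 and 435. Among adhesion molecules Cd9, a tetraspanin, was at 2528 and 2878 CPM against 433 and 406.

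Transcription factors were led by Cebpb, a C/EBP factor of myeloid cells, at 4227 and 3513 CPM, with Klf6 at 2535 and 1439 and Trib1, a pseudokinase that controls C/EBP alpha, at 1437 and 1104. For survival, Pim1, a kinase induced by cytokines, was at 3998 CPM in both libraries, Mcl1 at 2088 and 1606, and Pmaip1, which encodes the apoptosis promoter NOXA, at 1008 and 903 against 139 and 123 elsewhere. The iron store gene Fth1 was the most abundant named transcript, at 23805 and 22552 CPM. Of 19 nuclear-encoded genes of oxidative phosphorylation, 0 were at least 2-fold above the other barcodes in either library, beside 31.5% and 30.4% of all genes, and 0 and 4 were at least 2-fold below, beside 9.48% and 12.3%.

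Between the libraries, most eosinophil genes differed by less than 2-fold. Of 603 genes with at least 100 member UMIs over both libraries, 33 (5.47%) were at least 2-fold higher in the deficient-labelled members and 17 (2.82%) at least 2-fold lower, with a median log2 ratio of -0.09. Without the members above 3000 UMIs, 499 genes were measured, of which 8 (1.6%) were higher and 17 (3.41%) lower, with a median of -0.04. Of the 33 higher genes, 16 still had 100 UMIs and 4 of these were past 2-fold. Of the 17 lower genes, 15 still had 100 UMIs and 8 of these were past 2-fold. At any UMI count, 13 of the 33 and 9 of the 17 were past 2-fold. The share of higher among the genes past 2-fold was 66% as summed, 76.5% when ratios were centred on their median and 55.6% when mitochondrial, ribosomal and S100 genes were left out of the total. It was 32% without the deep members.

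Several genes lower in the deficient-labelled members were found in a large share of wild-type-labelled barcodes. Ctsd, the lysosomal protease cathepsin D, was at 1488 and 652 CPM and was found in 71.9% and 43.1% of members, a log2 ratio of -1.19 (-1.70 to -0.71) that was -1.33 without the deep members. Cd80, a costimulatory ligand of T cells, was at 571 and 217 CPM and in 50.3% and 21.6% of members, with a log2 ratio of -1.39 (-2.33 to -0.58), or -1.25. Itga4, the integrin chain that binds VCAM-1 and MAdCAM-1, was at 840 and 385 CPM, with a log2 ratio of -1.13, or -1.23. Alox15, which also served the rule, was at 535 and 217 CPM, a log2 ratio of -1.30, or -1.13. Creg1, a secreted glycoprotein, had a log2 ratio of -1.48, or -1.31. For Arl4c and Rflnb the ratios were -1.15 and -1.16 with all members and both -0.98 without the deep ones, just inside 2-fold.

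Some of the higher genes rested on the deep members and others did not. Il1b, the inflammatory cytokine interleukin-1 beta, was at 462 and 4835 CPM, a log2 ratio of 3.39 (3.08 to 3.70), but of the 289 deficient-labelled UMIs 201 lay in a single barcode, and without the deep members the ratio was 0.32 (-0.45 to 1.02). Ptgs2, the inducible cyclooxygenase, went from 1.46 to 0.35, and Cxcl2 from 1.12 to -0.46. Hspa8, a constitutive heat shock protein, kept its ratio, at 808 and 1957 CPM with a log2 ratio of 1.28, or 1.27 without the deep members, and in 51.4% and 72.5% of members. Gadd45b, a relative of Gadd45a, was at 375 and 836 CPM with a log2 ratio of 1.16, or 1.502 (0.78 to 2.19) without the deep members, on 51 and 28 UMIs. Lyz2 went from 1.64 to 2.89 (1.91 to 3.91), on 16 and 23 UMIs without the deep members. Ccl3, a chemokine that attracts leukocytes, moved the other way, from -0.08 to -1.46. The Lyz2 difference was not limited to members: Lyz2 stood at 30.9 and 693 CPM in B cell barcodes and at 2349 and 2808 in neutrophils. Il1b was at 6.17 and 283 CPM in B cell barcodes. Hspa8 and Gadd45b differed little there, at 870 and 976 CPM and at 306 and 308. Whether Lyz2 UMIs of members came from other cells was not tested.

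**Figure D4:**
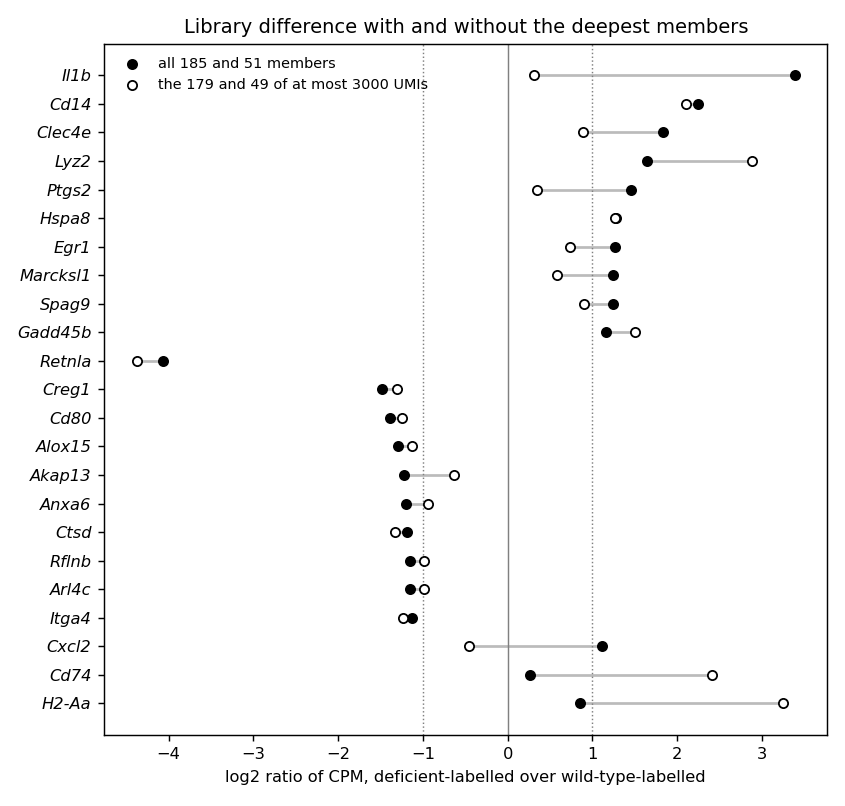
Log2 ratio of member CPM, deficient-labelled over wild-type-labelled, for the 10 highest and 10 lowest genes and for Cxcl2, Cd74 and H2-Aa, with filled points for all members, open points for members of at most 3000 UMIs and dotted lines at 2-fold. Il1b moves from 3.39 to 0.32 and Cxcl2 from 1.12 to -0.46, whereas Retnla, Ctsd, Cd80 and Hspa8 keep their place.

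Retnla, which encodes resistin-like alpha, a protein of type 2 immune responses, had the lowest ratio of all measured genes, at 844 and 50.2 CPM, a log2 ratio of -4.07 (-6.36 to -2.51) and of -4.37 without the deep members. Its 232 wild-type-labelled UMIs were not spread evenly. They lay in 21 of 185 members (11.4%, 7.17 to 16.8), and 8 members with at least 10 UMIs each held 80.6% of them. In the deficient-labelled library 3 of 51 members (5.88%, 1.23 to 16.2) had 1 UMI each. The intervals of these shares overlapped. Of those 8 members, 6 had F5, 2 had Lyz2 and 2 had Csf1r, Apoe or Mrc1. Their depths ran from 733 to 9330 UMIs, with a median of 1176.5. In the macrophage gate Retnla was at 1693 and 963 CPM, above its level in members of either library. Whether any Retnla UMIs of members came from macrophages was not tested.

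By gene group, few measured members were past 2-fold in most lists. Exceptions were the NF-kB, cytokine, cytokine receptor and lipid mediator enzyme lists, and the MHC class II list without the deep members only. Of the cytokine receptors 1 of 2 was higher, or 0 of 1 without the deep members. Of the lipid mediator enzymes 1 of 4 was higher and 1 lower, or 0 of 3 higher and 1 lower. In the receptor list of G protein-coupled receptors, 0 of 8 measured genes were higher and 1 lower, with a median log2 ratio of -0.08, or -0.03 without the deep members. Coagulation genes had 0 of 5 past 2-fold in either direction (median -0.15, or -0.48), and actin and migration genes 0 of 17 (median -0.24), or 1 of 16 higher (median -0.22). In the adhesion list 1 of 8 was lower, or 1 of 7. Among NF-kB subunits and feedback genes 3 of 6 were higher (median 0.66), and 0 of 5 (median 0.48) without the deep members. Of the cytokines, 2 of 2 were higher, Il1b and Il1rn, and 0 of 2 without the deep members. In the MHC class II list 0 of 4 were higher (median 0.62), and 3 of 3 (median 2.46) without the deep members. Immediate-early genes, which tissue dissociation can induce, had 2 of 10 higher, or 1 of 10. These counts are to be read beside the 5.47% and 2.82% of all measured genes with every member, and the 1.6% and 3.41% without the deep ones.

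Transcripts of B lineage and antigen-presenting cells moved with the library. A UMI of Igkc, the immunoglobulin kappa constant chain, was found in 3.78% (1.53 to 7.64) of wild-type-labelled and 72.5% (58.3 to 84.1) of deficient-labelled members, and Igha, of immunoglobulin A, in 7.03% and 56.9%. After thinning, Igkc was found in 0.541% and 51.0% of eosinophils and in 0% and 23.2% of neutrophils. All 395 immunoglobulin genes gave 0.0131% and 0.216% of eosinophil UMIs. The MHC class II genes differed in the same direction. Cd74 was found in 48.1% and 88.2% of eosinophils, and after thinning in 25.4% and 72.5% of eosinophils and 23.3% and 44.2% of neutrophils. With every member the Cd74 ratio was 0.26, with 80.2% of the wild-type-labelled Cd74 UMIs in deep members, and without them it was 2.42. H2-Aa, an MHC class II chain, went from 0.86 to 3.26 without the deep members. The part of free RNA in the deficient-labelled library's higher values was not tested.

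**Figure D5:**
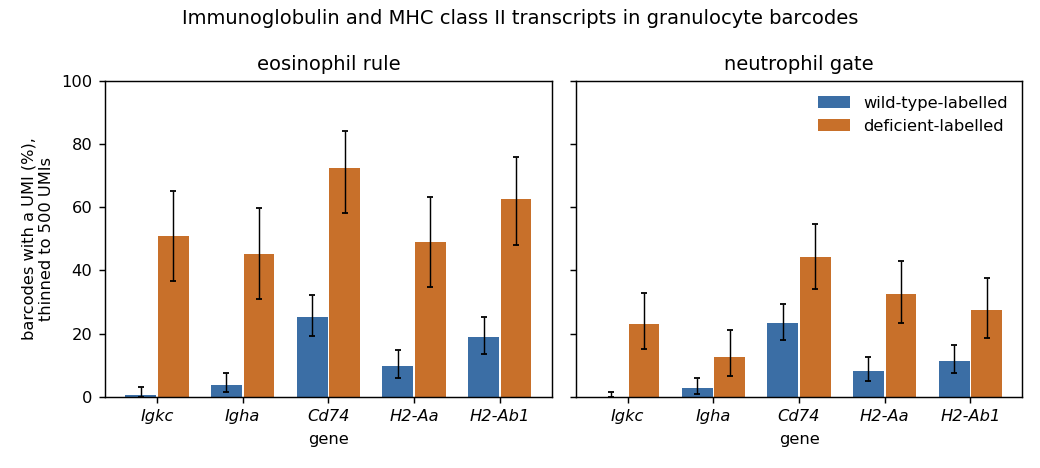
Share of barcodes with a UMI, in percent after thinning to 500 UMIs, of 2 immunoglobulin and 3 MHC class II genes in the eosinophil rule and the neutrophil gate, with exact 95% intervals. Both granulocyte gates show higher shares in the deficient-labelled library, with Igkc at 0.541% and 51.0% of eosinophils and 0% and 23.2% of neutrophils.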

How the data were processed

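The authors deposited raw UMI counts, one per gene in each barcode, without normalization. The submitters' processing notes name Cell Ranger, STAR 2.5.1b and the build mm10, and the file headers give software version 3.0.2. The matrices hold 31053 genes and barcodes of at least 500 UMIs. Groups follow the genotype labels. The members, gene lists and comparison gates were chosen with earlier results of these data known. Barcodes needed at least 200 genes and at most 20% mitochondrial UMIs. No doublet caller was run; the rule's exclusions and an upper limit of 3000 UMIs stand in its place. Member UMIs (274903 and 59774) were summed per library and scaled to CPM. Ratios carry exact conditional binomial intervals, shares exact Clopper-Pearson ones, and a count of 0 was set at 3 counts. Shares across depths were taken after random thinning to 500 UMIs. With 1 library per group no test was run; a gene was counted at 2-fold among those with at least 100 member UMIs. Named genes were those of the rule and F5, up to 4 of the highest in each of 20 group lists, listed genes at 0 that define a cell type, the 20 leading genes, and the 10 highest and 10 lowest between libraries; other list members named (Alox5, Il1rl1, Cebpe, Gata1, Il13, Il5, Ltc4s, F3, F7, Hrh4, Ptgdr, Cysltr2 and Ccl11) were chosen after their values were seen. The value of 1 gene that this rule names is not reported here. Cell types were checked with 16 marker lists. Of the listed genes 3 were not matched in the matrix. For the symbols Dpep2 and Aldoa, which occur on 2 rows, the row with more member UMIs was used. The scripts were tested on simulated data. Values were computed in Python 3.11.15 with pandas 2.3.3, scipy 1.17.1 and numpy 2.4.6, and plotted with matplotlib 3.10.9. Alternatives changed the mitochondrial limit, the gene minimum, each criterion of the rule, the UMI minimum, the scale, the thinning and the fold. Thinning before the rule, a 1.5-fold threshold and leaving out shared barcode sequences were chosen after seeing the data.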

Additional observations from a re-analysis of the deposited data

Results flagged for a closer look

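Barcodes that met every criterion of the rule except a Ccr3 UMI were left out of all comparisons of eosinophils. There were 156 such barcodes beside 185 members in the wild-type-labelled library, and 118 beside 51 members in the deficient-labelled one. Each had at least 2 UMIs of Alox15, Serpinb2 and Siglecf together, and F5 was found in 42.9% and 31.4% of them, beside 54.6% and 33.3% of members. Retnlg was found in 51.3% and 37.3% of them. Which of these barcodes were eosinophils whose Ccr3 was not captured was not tested.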

How the results depend on the processing

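No paired analysis was possible because each group was 1 library without replicate numbers. The eosinophil shares were 7.09% and 0.866%. They became 3.83% and 0.255% with at least 2 Ccr3 UMIs, 5.98% and 0.611% with a sum of at least 3 for the other 3 genes, and 3.22% and 0.374% with the rule applied after thinning. The median depth became 997 and 730 UMIs with that thinning, and 1073 in the deficient-labelled library with at least 2 Ccr3 UMIs, where F5 was found in 73.3% of members. The 33 genes higher between libraries became 5 with at least 2 Ccr3 UMIs, 107 without the C1q, Cd3 and Ms4a1 criteria, 8 without members above 3000 UMIs, 58 and 13 with gene minimums of 50 and 200 UMIs, 20 without mitochondrial, ribosomal and S100 genes in the total, 3 with members thinned, 3 with the rule after thinning and 76 at 1.5-fold. The 17 lower genes became 92 without those criteria, 77 and 6 with those minimums, 7 with members thinned, 7 with the rule after thinning and 68 at 1.5-fold. These are counts and not shares, because the number of genes measured differed between settings. It was 603 in the main setting and 499 without members above 3000 UMIs. Thinning leaves fewer UMIs and so fewer genes measured, as do at least 2 Ccr3 UMIs, with 100 and 15 members. The gene minimums and the 1.5-fold threshold change the count by definition. For the other changes the cause was not tested. With at least 2 Ccr3 UMIs the log2 ratio turned to -2.32 for Lyz2, -0.22 for Il1rn, -0.75 for Cxcl2 and -0.11 for Nfkbia. Without the C1q, Cd3 and Ms4a1 criteria that of Akap13 turned to 0.0709. Cxcl2 also turned to -0.46 without members above 3000 UMIs, -0.0208 with CPM averaged over members, -0.0563 with members thinned and -0.0965 with the rule after thinning. Of 1372 alternative values for 90 ratios between libraries, 1199 stayed within the counting interval, 164 left it on the same side or without having been past 2-fold, and these 9 turned.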
